A study of Mus musculus with 6 samples.

Results

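Collagen chain genes were taken as every gene whose symbol in the platform annotation has the form Col, a type number, the letter a and a chain number. The rule found 42 of the 18193 genes that had a probe set with a single symbol. They were carried on 82 of the 45037 probe sets (groups of short probes read together as 1 transcript). Of these genes, 27 had more than 1 probe set and 15 had 1, and each gene is represented below by its probe set with the highest mean over the 6 arrays unless another is named. The genes were 11 fibrillar chains, 6 basement membrane chains, all of type IV, and 25 chains of other classes. Col21a1, Col6a6 and Col28a1 were not analysed here.

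The cells were mouse mesenchymal stem cells, stromal cells that can turn into fat, bone or cartilage cells, and the RNA of 6 cultures was read on Affymetrix arrays. In each of 3 separate experiments 1 culture was irradiated for 2 h with broadband terahertz pulses, and 1 control culture stood next to it. Thus both groups had 3 cultures, and a difference was taken as irradiated minus control within an experiment. The pulses lasted 35 fs, were centred near 10 THz, and came at 1 kHz with 1 mW/cm2. All 6 cultures, controls too, had been given a fat cell differentiation mix 48 h earlier, made of rosiglitazone at 1 µM, insulin at 5 µg/ml, IBMX at 100 µM and dexamethasone at 1 µM, in medium with 5% serum. All were held at 26 to 27 °C, below body temperature, during the exposure, and RNA was taken directly afterwards. The cells came from a commercial source, and the labels give neither strain nor passage. Whether the 3 experiments shared 1 stock of cells is not known here, and only these 3 experiments stand for the biology.

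Collagens are the main structural proteins of the extracellular matrix. Each molecule is a triple helix of 3 chains, and the chain genes a cell uses decide whether it can build cable-like fibrils (types I, II, III, V and XI), the sheet-like network of basement membranes (type IV) or smaller assemblies that sit on or between these. A fat cell is wrapped in a basement membrane rich in type IV collagen and lies in a matrix with much type VI collagen, and stromal precursors replace part of their fibrillar matrix by this coat as they differentiate.

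Levels are given on the log2 scale on which the authors deposited them, so that a difference of 1 is a 2-fold difference in signal. The quartiles of the 6 arrays lay between 3.40 and 3.43, 4.83 and 4.87, and 7.45 and 7.49, and a level at or above 4.84, the median of all probe sets' means, is called bright below. Fat cell markers were bright for 7 of 8 measured genes (Adipoq stood at 13.62 to 13.94), mesenchymal stromal markers for 8 of 9 (Thy1 was not, at 3.51 to 4.07), and macrophage and leukocyte markers for 10 of 10. Endothelial markers were bright for 2 of 10, Kdr and Esam, and the defining Pecam1 stood at 2.58 to 3.21 and Cdh5 at 3.63 to 3.88. The cultures thus carried RNA of more than 1 cell type, and fewer cells of a type and less RNA per cell cannot be told apart in such samples. Control 3 stood apart in its spike-in transcripts, which averaged 11.63 there and 11.06 to 11.25 on the other 5 arrays.

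Of the 42 collagen genes, 25 were bright: 9 fibrillar chains, 3 basement membrane chains and 13 of the others. The bright fibrillar chains included those of types I, III and V, the bright type IV chains were Col4a1, Col4a2 and Col4a5, and the 3 main chains of type VI, Col6a1, Col6a2 and Col6a3, were bright on every array. The 17 others were below that level. They included Col9a3, a chain of a cartilage collagen, at 4.44 to 5.12, the hypertrophic cartilage collagen Col10a1 at 3.59 to 3.89 and the kidney and lung basement membrane chain Col4a3 at 3.52 to 3.75. Probe sets bind their targets with unequal strength, so the levels of different genes were not ranked against each other.

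Irradiation was followed by no collagen difference that passed the test. In a limma fit that pairs each irradiated culture with its control, with Benjamini-Hochberg adjustment over 45037 probe sets, 0 of 42 collagen genes and 0 of 82 collagen probe sets had an adjusted p under 0.05, against 0% of all probe sets. The adjusted p of the 42 genes lay between 0.929 and 0.993, and that of the 82 sets reached 0.994. At an unadjusted p under 0.05 there were 4 collagen genes (Col18a1, Col6a5, Col4a2 and Col4a1) of 42, where all genes gave 753 of 18193, or 4.14%. Of the 82 collagen probe sets 7 were under it, where all 45037 probe sets gave 2237. Both collagen shares were the larger ones, from small counts. The 95% interval of the difference lay within 1.5-fold in either direction for 41 of 42 collagen genes and within 2-fold for all 42. Over all genes it did so for 97.6% and 99.9%, so the collagens were like the rest in this. The exception at 1.5-fold was Col18a1. Collagen genes higher in all 3 irradiated cultures than in their own controls were Col18a1, Col24a1, Col7a1, Col19a1 and Col22a1, and genes lower in all 3 were Col4a1, Col4a2, Col15a1 and Col6a5. These 5 and 4 of 42 stand beside 12.4% and 11.6% of all genes, shares of about the same size. For Col19a1 and Col22a1 a dimmer probe set went the other way. It was lower in all 3 pairs without overlap, with differences of -0.33 for Col19a1 and -0.19 for Col22a1. All sets of these 2 genes had means below the median level.

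**Figure D1:**
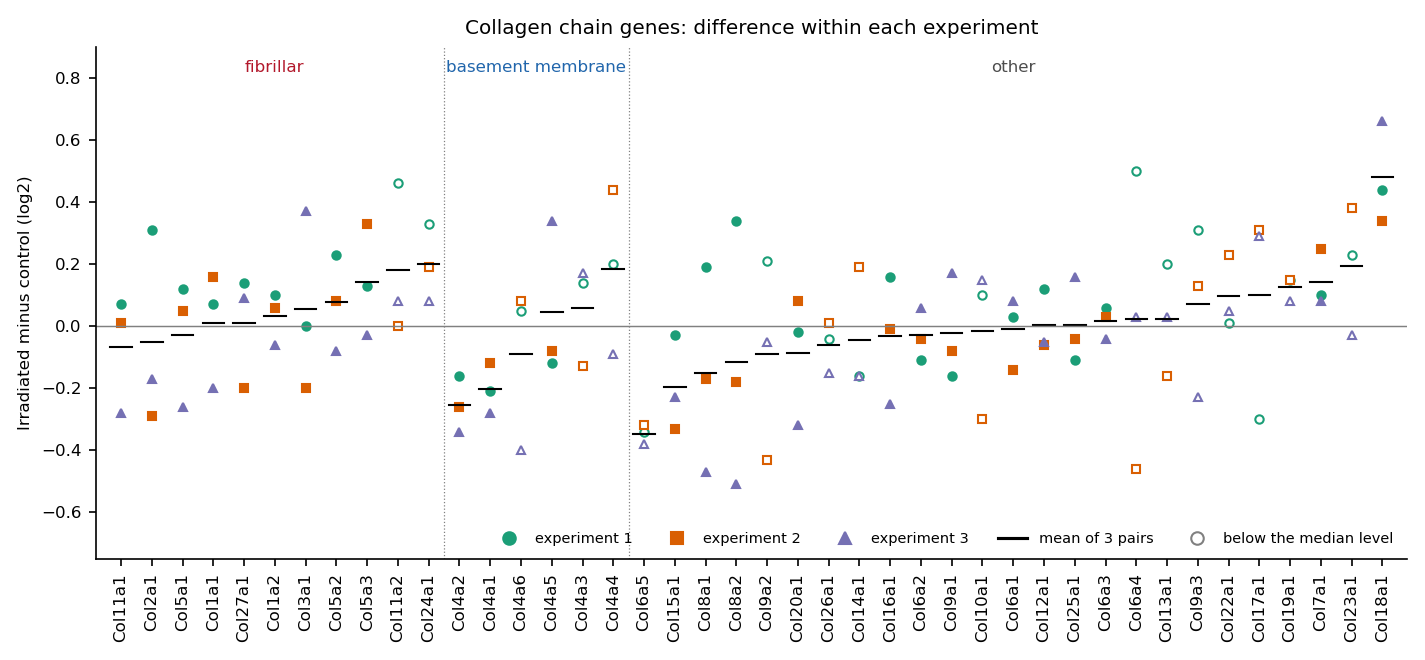
Irradiated minus control difference (log2) of each of the 42 collagen genes, with 1 point for each of the 3 experiments and a bar for the mean, grouped into fibrillar, basement membrane and other chains. Most genes have points on both sides of 0, and Col18a1 stands farthest to the higher side with differences of 0.44, 0.34 and 0.66.

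Col18a1 encodes the multiplexin chain of type XVIII collagen, a basement membrane proteoglycan whose C-terminal piece is endostatin. Its level was 7.73, 7.45 and 7.37 in controls 1, 2 and 3 and 8.17, 7.79 and 8.03 in irradiated cultures 1, 2 and 3. Every irradiated culture was thus above every control culture. The difference was 0.48 ± 0.09 (SE; 95% interval 0.26 to 0.70), or 1.39-fold, between means of 7.52 ± 0.19 and 8.0 ± 0.19 (SD, n = 3 each), with an adjusted p of 0.929 by limma. It ranked 42 by p among all 45037 probe sets. Its second probe set gave 7.57, 7.27 and 7.21 in controls and 8.01, 7.61 and 7.71 in irradiated cultures. These levels did not overlap either, and the difference was 0.43 ± 0.08 (SE), or 1.34-fold. The probe sets of a gene share the same RNA and do not count as separate replicates. Without 1 of the 3 experiments at a time, the difference of the first set lay between 0.39 and 0.55.

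Col18a1 has more than 1 annotated start. The RefSeq window (GRCm38.p6, 250 bases before to 50 bases after a start) of its upstream start, chr10:77166481-77166780 on the minus strand, is shown because this gene had the largest difference of the 42. Capitals mark matches, on either strand, of the CCAAT box letters CCAAT, the GC box letters GGGCGG or the TATA box letters TATAAA.
Col18a1: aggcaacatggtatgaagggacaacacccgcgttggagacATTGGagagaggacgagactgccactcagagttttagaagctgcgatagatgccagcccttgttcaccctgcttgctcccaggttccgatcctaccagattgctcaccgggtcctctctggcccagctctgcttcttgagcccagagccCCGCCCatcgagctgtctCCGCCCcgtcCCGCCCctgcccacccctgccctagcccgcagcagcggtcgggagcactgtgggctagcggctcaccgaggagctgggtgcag
The window holds 1 CCAAT match, 3 GC box matches and no TATAAA. The window of the downstream start, chr10:77113656-77113955 on the same strand, holds none of the 3 motifs. The arrays did not tell the starts apart.

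Col15a1, the chain of type XV collagen and the other multiplexin, stood at 6.74, 6.48 and 6.62 in controls and 6.71, 6.15 and 6.39 in irradiated cultures. Its levels overlapped between the groups, with pair differences of -0.03, -0.33 and -0.23 and a mean of -0.20 ± 0.09 (SE). The difference of Col18a1 exceeded that of Col15a1 in 3 of 3 experiments, by 0.47, 0.67 and 0.89. The mean of 0.677 ± 0.21 (SD, n = 3) had p = 0.25 by an exact two-sided sign-flip permutation test, the smallest p that 3 pairs allow. Col18a1 was higher and Col15a1 lower in all 3 pairs, and Col18a1 was picked for its large difference. The shared sign and this p were thus fixed by values already given and add no evidence. Of the spread of the 2 multiplexin chains over the arrays (sums of squares), irradiation held 54.5% and experiment 38.7%. The first share mostly restates the Col18a1 difference of 0.48, the largest of the 42. Since Col15a1 moved the other way, it describes no common trait of the 2 chains. For all collagen genes these shares were 18.6% and 51.3%, and for all genes 10.6% and 69.4%.

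Col4a1 and Col4a2 encode the chains of the trimer found in nearly every basement membrane, 2 of the first with 1 of the second. Col4a1 stood at 11.90, 11.60 and 11.57 in controls and at 11.69, 11.48 and 11.29 in irradiated cultures. The irradiated culture was the lower of each pair, but the groups overlapped because experiment 1 was higher in both. The difference was -0.20 ± 0.08 (SE), with an adjusted p of 0.929 by limma. The second Col4a1 probe set gave 9.37, 9.21 and 9.37 in controls and 9.20, 9.15 and 9.14 in irradiated cultures, without overlap, and a difference of -0.15 ± 0.08 (SE). Col4a2 stood at 9.98, 9.79 and 10.00 in controls and 9.82, 9.53 and 9.66 in irradiated cultures, a difference of -0.25 ± 0.08 (SE; adjusted p = 0.929 by limma). Here too each irradiated culture was below its own control, by 0.16, 0.26 and 0.34, while irradiated 1 was above control 2.

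The genes Col4a1 and Col4a2 lie head to head, and their windows are shown because both genes were lower in the irradiated culture of each pair. Col4a1 has chr8:11312777-11313076 on the minus strand and Col4a2 has chr8:11312555-11312854 on the plus strand (RefSeq, GRCm38.p6). Capitals mark the 78 bases that both windows hold, read in opposite directions.
Col4a1: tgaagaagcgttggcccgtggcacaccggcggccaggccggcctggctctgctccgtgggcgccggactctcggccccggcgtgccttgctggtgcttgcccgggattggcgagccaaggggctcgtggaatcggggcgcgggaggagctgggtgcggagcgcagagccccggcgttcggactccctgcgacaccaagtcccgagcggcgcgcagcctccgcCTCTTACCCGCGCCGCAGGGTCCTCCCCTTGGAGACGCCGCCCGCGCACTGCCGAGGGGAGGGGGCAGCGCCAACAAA
Col4a2: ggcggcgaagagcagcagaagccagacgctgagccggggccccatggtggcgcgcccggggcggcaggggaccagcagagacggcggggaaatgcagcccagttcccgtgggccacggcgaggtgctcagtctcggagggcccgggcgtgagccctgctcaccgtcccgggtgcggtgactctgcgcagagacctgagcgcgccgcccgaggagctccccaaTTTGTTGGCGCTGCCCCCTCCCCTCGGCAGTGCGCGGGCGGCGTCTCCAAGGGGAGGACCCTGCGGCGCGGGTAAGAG
The annotated starts lie 21 bases apart, and the windows hold 1 CCAAT match each and 1 and 3 GC box matches, with no TATAAA. In experiments 1, 2 and 3 the Col4a1 difference minus the Col4a2 difference was -0.05, 0.14 and 0.06, with signs that varied between the experiments.

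Of the 4 minor type IV chains 3 were below the median level. The bright one, Col4a5, which pairs with other minor chains in kidney and smooth muscle, had pair differences of -0.12, -0.08 and 0.34 at levels between 5.77 and 6.18. Col4a4 had 0.20, 0.44 and -0.09, with a mean of 0.18 ± 0.11 (SE) at levels between 2.89 and 3.33. In the whole type IV class, 3 genes had a positive and 3 a negative difference, with a median of -0.022. Col4a6 counted as negative, with -0.09 from its brightest set. Its other set was higher in all 3 pairs without overlap, by 0.25 ± 0.10 (SE; adjusted p = 0.929 by limma), and both sets were dim. Since Col4a1 and Col4a2 are also made by fat cells, the fat cell markers are given beside them. Their mean level was 10.52 to 10.61 in controls and 10.40 to 10.41 in irradiated cultures, with a median difference of -0.13. Endothelial markers, another source of type IV and type XVIII collagen, averaged 3.79 to 4.0 in controls and 3.96 to 3.97 in irradiated cultures. Their median difference was 0.065, with 7 of 10 positive. Tie1, an endothelial receptor, was higher in every pair without overlap, at 2.91 to 3.20 in controls and 3.29 to 3.47 in irradiated cultures, all dim (adjusted p = 0.929 by limma). Erg, another of the 10, went the other way and was lower in every pair without overlap. It stood at 4.80 to 4.90 in controls and 4.71 to 4.78 in irradiated cultures (adjusted p = 0.934 by limma). Groups without overlap were found for 3.31% of all genes with irradiated higher and for 2.99% with irradiated lower. Macrophage and leukocyte markers had a positive difference for 10 of 10 genes, with a median of 0.078. Their list means were 11.14 to 11.33 in controls and 11.32 to 11.40 in irradiated cultures. Of all 18193 genes, 9183 had a positive difference. The part of these cell types in the Col4a1, Col4a2 and Col18a1 differences was not tested.

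**Figure D2:**
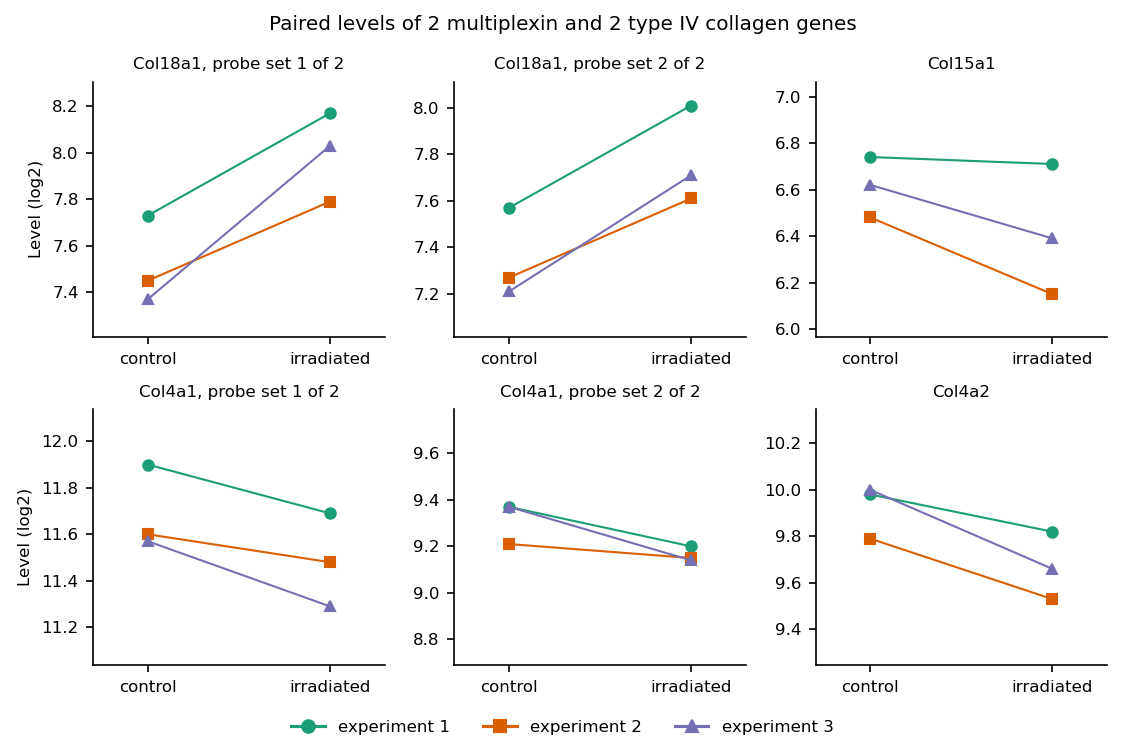
Log2 levels of Col18a1, Col15a1, Col4a1 and Col4a2 in the control and irradiated culture of each experiment, joined by a line per experiment. Col18a1 and Col4a1 have 1 panel for each of their 2 probe sets. All 3 lines go up for Col18a1, and all 3 go down in the Col15a1, Col4a1 and Col4a2 panels.

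The fibrillar chains gave small differences of mixed sign. Col1a1, which with Col1a2 forms type I collagen, stood at 9.65, 9.54 and 10.17 in controls and 9.72, 9.70 and 9.97 in irradiated cultures. The highest levels of both groups were those of experiment 3, and the pair differences of 0.07, 0.16 and -0.20 averaged 0.01 ± 0.10 (SE). Col1a2 stood at 13.83, 13.82 and 13.98 in controls and 13.93, 13.88 and 13.92 in irradiated cultures, and its difference was 0.03 ± 0.08 (SE). Col3a1, the homotrimer of soft, stretchable tissues, stood at 12.74, 12.64 and 12.33 in controls and 12.74, 12.44 and 12.70 in irradiated cultures. Its pairs differed by 0, -0.20 and 0.37, so that 1 experiment set the sign of the mean of 0.06 ± 0.12 (SE).

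Type V collagen nucleates type I fibrils and sets their width. Its chain Col5a1 stood at 11.23, 11.21 and 11.55 in controls and 11.35, 11.26 and 11.29 in irradiated cultures. Its partner Col5a2 stood at 12.01, 12.06 and 12.25 in controls and 12.24, 12.14 and 12.17 in irradiated cultures. Both were higher in the irradiated culture of experiments 1 and 2 and lower in that of experiment 3, with differences of -0.03 ± 0.10 and 0.08 ± 0.09 (SE). The fibrillar genes with the smallest p were Col24a1, Col11a2 and Col5a3. Col24a1, a chain linked to developing bone and cornea, stood at 3.91, 4.11 and 4.18 in controls and 4.24, 4.30 and 4.26 in irradiated cultures. These levels did not overlap, but all lay below the median level, and the difference was 0.20 ± 0.08 (SE). Col11a2 differed by 0.18 ± 0.11 and Col5a3 by 0.14 ± 0.09 (SE). Groups that did not overlap with irradiated higher were found for 2 collagen genes (Col18a1 and Col24a1), against 3.31% of all genes.

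Among the other chains the bright type VI genes were nearly level. Type VI collagen forms beaded filaments around fat and muscle cells. Col6a1 stood at 11.72, 11.62 and 11.49 in controls and 11.75, 11.48 and 11.57 in irradiated cultures. Col6a2 stood at 12.74, 12.54 and 12.37 against 12.63, 12.50 and 12.43, and Col6a3 at 12.78, 12.64 and 12.48 against 12.84, 12.67 and 12.44. In all 3 genes the means of the experiments ranged over more than the difference within any pair, and the differences were -0.01 ± 0.08, -0.03 ± 0.08 and 0.02 ± 0.08 (SE). Col6a5, a further type VI chain, stood at 2.76, 2.81 and 2.66 in controls and 2.42, 2.49 and 2.28 in irradiated cultures. The groups did not overlap and the difference was -0.35 ± 0.07 (SE; adjusted p = 0.929 by limma), but every level was below the lower quartile of the arrays. It was the only one of the 42 collagen genes with all irradiated cultures below all controls, against 2.99% of all genes.

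Type VIII collagen builds a short-chain network under endothelium and in the cornea. Col8a1 stood at 8.64, 8.79 and 9.19 in controls and 8.83, 8.62 and 8.72 in irradiated cultures. Col8a2 stood at 7.49, 7.98 and 8.79 in controls and 7.83, 7.80 and 8.28 in irradiated cultures. Both had the irradiated culture higher in experiment 1 and lower in experiments 2 and 3, with differences of -0.15 ± 0.13 and -0.12 ± 0.16 (SE). Col12a1, the fibril-associated collagen of type XII, stood at 10.08, 10.03 and 10.30 in controls and 10.20, 9.97 and 10.25 in irradiated cultures, a difference of 0.00 ± 0.08 (SE).

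Taken by class, the median difference was 0.033 for the 11 fibrillar chains (8 positive, 3 negative), -0.022 for the 6 type IV chains and -0.01 for the 25 others (12 positive, 13 negative). Over all 42 it was 0.0067, and over all genes 0.0033. With each experiment left out in turn these medians ran from 0 to 0.085 for the fibrillar chains, from -0.07 to -0.0475 for type IV, from -0.05 to 0.025 for the others and from -0.025 to 0.0325 for all 42. Fibrillar chains had medians of 0.13, 0.05 and -0.06 in experiments 1, 2 and 3, with 10 of 11 positive in experiment 1 and 7 of 11 negative in experiment 3. Type IV chains had -0.035, -0.10 and -0.185, and the other chains 0.10, -0.04 and -0.03. All genes had 0.01, 0 and 0 in the same pairs.

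Proteins that make, cut, cross-link or bind collagen were measured on the same arrays, and none of them passed the limma test in any comparison. At an unadjusted p under 0.05 the 5 lists held 0 genes for irradiation. Of 21 genes for hydroxylation, folding and export of the chains, 20 were measured, with a median irradiated minus control difference of -0.0033. Processing and cross-linking genes (11 of 14 measured) also had -0.0033, fibril-associated proteoglycans and glycoproteins (18 of 18) -0.018, basement membrane partners (16 of 17) -0.013 and collagen receptors (11 of 12) -0.017. By experiment, the medians of all 5 lists were positive in experiment 1 and negative in experiment 3, as for the fibrillar chains. In experiment 2, where the fibrillar chains had 0.05, the lists had -0.04, 0.09, 0, -0.065 and -0.05 in the order given. Serpinh1, the collagen chaperone Hsp47, stood at 10.80, 10.89 and 11.67 in controls and 10.86, 10.76 and 11.18 in irradiated cultures. Control 3 was the highest and irradiated 3 the next, and the difference was -0.19 ± 0.12 (SE). Lair1, an inhibitory collagen receptor of immune cells, had pair differences of 0.00, -0.14 and -0.73, and the anthrax toxin receptor Antxr2, which takes up type VI collagen, had 0.12, 0.10 and 0.29. Tnxb, the tenascin that spaces fibrils, had 0.10, 0.10 and 0.54 at levels between 4.24 and 4.97. The laminin chain Lama4 had -0.04, -0.07 and -0.27.

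**Figure D3:**
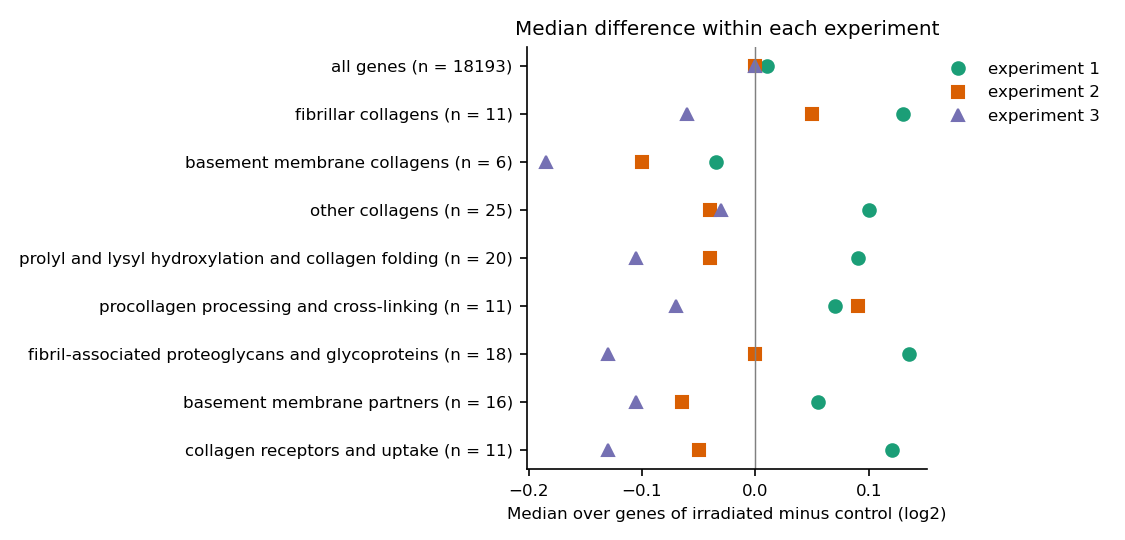
Median irradiated minus control difference (log2) in experiments 1, 2 and 3 for the collagen classes, the 5 lists of collagen partner genes and all genes, with 1 symbol per experiment. The fibrillar chains go from 0.13 in experiment 1 to -0.06 in experiment 3, and all genes stay at 0.01, 0 and 0.

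The experiments themselves differed more than the irradiated and control cultures. By the same limma model, 234 probe sets (0.52%) differed between experiments 2 and 1, 1374 (3.05%) between experiments 3 and 1, and 16 (0.0355%) between experiments 3 and 2, each from 2 arrays per experiment. Read from its brightest probe set, no collagen gene (0 of 42) passed in any of these, where 0.649%, 3.13% and 0.044% of all genes did. At an unadjusted p under 0.05 by limma there were 4, 10 and 3 collagen genes, beside 1710, 3691 and 1665 of all genes. Fibrillar chains were higher in experiment 3 than in experiment 1 for 10 of 11 genes, with a median of 0.145, against -0.02 over all genes, and higher than in experiment 2 with a median of 0.175, against -0.01. The exception in the first comparison was Col3a1, at -0.225. The rise over experiment 1 lay mostly between the controls. The mean level of the fibrillar chains was 8.69 in control 1 and 8.96 in control 3. In irradiated cultures 1 and 3 it was 8.87 and 8.92.

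Col1a1 was higher in experiment 3 than in experiment 1 by 0.385 ± 0.118 (SE; adjusted p = 0.157 by limma). Col8a2 had the largest such difference, 0.875 ± 0.195 (adjusted p = 0.080). Col4a1 had -0.365 ± 0.096 (adjusted p = 0.116) and Col6a3 -0.35 ± 0.093 (adjusted p = 0.117). The other type VI chains lay on the same side as Col6a3, with -0.285 for Col6a2 and -0.205 for Col6a1. None of these passed the threshold, although for all 6 genes both cultures of experiment 3 lay on 1 side of both of experiment 1. Such separation was seen for 13 higher and 8 lower collagen genes of 42, against 21.3% and 29.7% of all genes. For experiments 2 and 1 it was 4 higher and 8 lower (19% and 26.2% of all genes), and for experiments 3 and 2 it was 14 higher and 4 lower (18.2% and 21.4%). With a variance prior that follows intensity, Col1a1, Col4a1, Col6a2, Col6a3 and Col8a2 passed, with adjusted p of 0.0353, 0.006, 0.0133, 0.00273 and 0.015 by limma.

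Genes for chain folding lay to the same side as the fibrillar chains in experiment 3 minus experiment 1, but not in experiment 2 minus experiment 1. In the first comparison 17 of 20 genes of the hydroxylation and folding list were higher, with a median of 0.0875, where 8191 of 18193 genes were higher. In the second their median was 0.045 (12 of 20 higher), and that of the fibrillar chains was -0.025 (5 of 11 higher). Serpinh1 had 0.595 ± 0.145 (adjusted p = 0.098 by limma) and P4ha1, a catalytic subunit of prolyl 4-hydroxylase, 0.415 ± 0.102 (adjusted p = 0.101). Fibril-associated genes were higher in experiment 3 than in experiment 1 for 15 of 18, with a median of 0.10, and fibronectin, Fn1, had 0.375. Both lists rose mainly between the controls. The mean level of the folding list was 9.33 and 9.60 in controls 1 and 3, and 9.44 and 9.47 in irradiated cultures 1 and 3. For the fibril-associated list it was 9.67 and 9.87 in these controls, and 9.79 and 9.76 in these irradiated cultures. Of the 6 arrays, control 1 had the lowest mean level and control 3 the highest, for both lists and for the fibrillar chains. Both controls enter these differences, and they also enter the pair differences of experiments 1 and 3. The spike-in level of control 3 and the ratio of 3' to 5' probes moved between the experiments too. Cell type markers differed as well. Sox9, the chondrocyte regulator, was higher than in experiment 1 by 1.885 ± 0.188 (SE; adjusted p = 0.0218 by limma) in experiment 2 and by 2.705 ± 0.188 (adjusted p = 0.00225) in experiment 3, while the 8 chondrocyte markers had a median of 0 in experiment 3 minus experiment 1. In that comparison macrophage and leukocyte markers were lower for 8 of 10 genes (median -0.18) and stromal markers for 7 of 9 (median -0.085). Fat cell markers were lower for 6 of 8 (median -0.1075) and epithelial markers for 6 of 8 (median -0.045). On the higher side were osteoblast markers, for 4 of 5 (median 0.14), and smooth muscle and pericyte markers, for 6 of 9 (median 0.12). Endothelial markers were higher for 5 of 10 (median 0.035). The arrays of experiment 1 had a Gapdh 3' minus 5' difference of 0.19 and 0.23, against -0.05 to -0.01 on the other 4. For Actb the difference set experiment 1 less clearly apart, with 0.75 and 0.76 there and 0.61 to 0.72 on the other 4, highest on control 3. The part of these in the collagen differences was not tested.

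**Figure D4:**
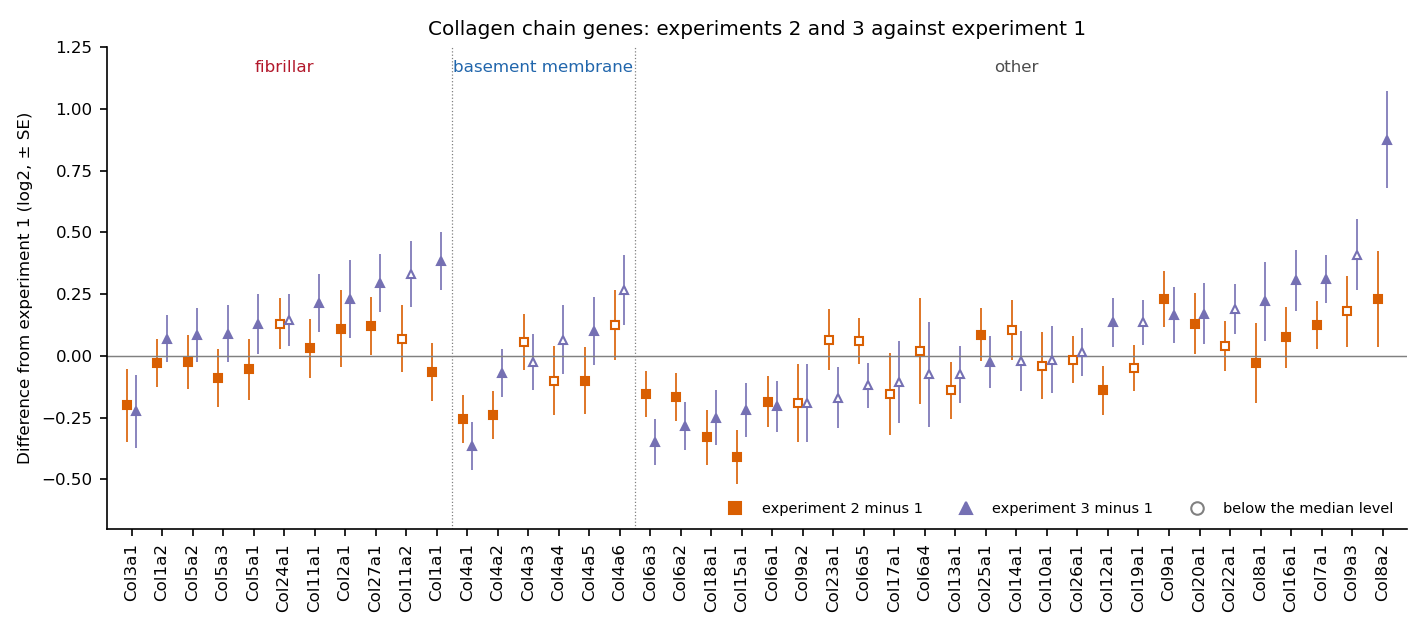
Difference of experiments 2 and 3 from experiment 1 (log2, bars ± SE from limma) for each collagen gene by class, with open symbols for genes below the median level. For experiment 3, fibrillar chains lie to the higher side in 10 of 11 cases, while Col4a1 and the type VI chains Col6a1, Col6a2 and Col6a3 lie to the lower side, from -0.365 to -0.205.

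A single collagen probe set passed between experiments, 1 of 82, and the other sets of its gene did not. The dimmest of the 3 Col1a2 probe sets had levels of 5.79, 4.18 and 3.87 in controls 1, 2 and 3 and of 5.94, 4.37 and 3.97 in the irradiated cultures. The 2 cultures of experiment 1 stood above the other 4, whatever the treatment. Experiment 2 minus experiment 1 was -1.59 ± 0.09 (SE; adjusted p = 0.0042 by limma) and experiment 3 minus experiment 1 was -1.94 ± 0.09 (adjusted p = 0.00069). Probe sets called lower were 0.0466% and 1.18% of all in these comparisons. The brightest set differed by -0.03 and 0.07 and the middle set by -0.05 and 0.075 there. The first call was lost without experiment 3 (adjusted p = 0.107) and the second without experiment 2 (adjusted p = 0.0945), with differences of -1.59 and -1.945 as before. In these fits to 4 arrays, 0 probe sets of any gene passed. Which transcript this set reads was not analysed here.

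**Figure D5:**
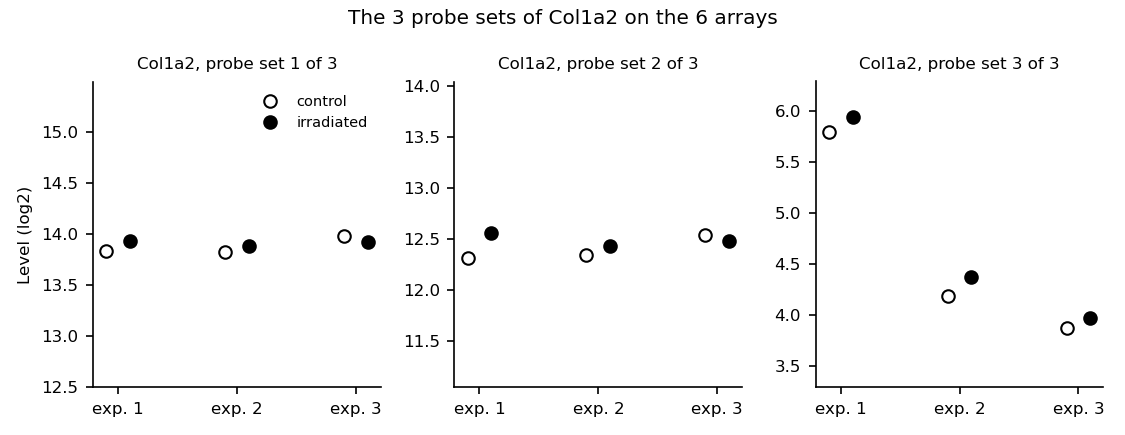
Log2 level of the 3 Col1a2 probe sets on the 6 arrays, by experiment and treatment, on axes of equal height. The dimmest set is at 5.79 and 5.94 in experiment 1 and at 3.87 to 4.37 in experiments 2 and 3, while the brighter sets stay at 13.82 to 13.98 and 12.31 to 12.56.

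Probe sets of a gene gave opposite signs for the irradiated minus control difference in 11 of the 27 collagen genes with more than 1 set. In 2 of these, Col11a1 and Col5a1, all sets were bright. Col11a1, a chain of cartilage fibrils that cultured stromal cells also make, had -0.07 ± 0.10 from its brightest set and 0.07 ± 0.10 (SE) from the other.

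RefSeq start windows were found for 33 of the 42 genes, 36 windows in all. GGGCGG, on either strand, was in 22 of them (61.1%), against 35.7% of all 32841 windows of the same length. CCAAT was in 13 (36.1%) against 37.4%, and TATAAA in 5 (13.9%) against 13.6%. A match of these letters is a description of the window and not a binding site.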

How the data were processed

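RNA of 6 cultures was labelled from 200 ng and read on 1 array each. The authors deposited log2 values per probe set. The submitters' processing notes name RMA, affy and limma without version or role. No header states the base of the log, which is taken to be that of RMA. Since RMA makes the arrays alike in distribution, a shift common to all RNA is invisible. Scanner files were not used here. Array number and not read depth limits precision here.

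The 64 control probe sets were left out. Gene symbols are those of the platform annotation, where 9160 probe sets had no symbol and 932 had several, and neither kind was named. Classes, gene lists and members were chosen with earlier results of these data known. Named genes were those called, the 3 of each class with the smallest p for irradiation, a fixed set of chains and the 2 smallest p of a partner list.

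limma 3.58.1 in R 4.3.3 (lmFit, eBayes) was fitted to 45037 probe sets with treatment and experiment as fixed terms and Benjamini-Hochberg adjustment at 0.05. The pairing comes from the series design. Deviations from the group means correlated at 0.629, 0.142 and 0.505 within the pairs of experiments 1, 2 and 3. Between a control and an irradiated culture of different experiments the values were -0.539 to 0.153. The value of experiment 2 lies in that range. The series design calls the experiments biologically independent. The scripts were tested on simulated data. Promoter windows came from RefSeq, GRCm38.p6. The alternatives were another block, normalization, filter, variance prior, array weights or probe set rule, and leaving out an experiment.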

Additional observations from a re-analysis of the deposited data

How the results depend on the processing

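No collagen gene was called for irradiation under any alternative, including the fit with no replicate block (0 called), the random block and each experiment left out (0 to 0). Pairing thus changed no call. For Col18a1 the difference stayed between 0.39 and 0.55 and the adjusted p by limma between 0.496 and 0.998. Small differences changed sign or, for Col1a2 and Col5a2, fell to 0. With median centring Col12a1 was -0.0167, Col1a1 -0.01 and Col6a3 -0.0033, and with array weights Col5a1 was 0.0016. With experiments left out in turn, the ranges were -0.055 to 0.035 (Col12a1), -0.065 to 0.115 (Col1a1), 0 to 0.08 (Col1a2), -0.1 to 0.185 (Col3a1), -0.105 to 0.085 (Col5a1), 0 to 0.155 (Col5a2), -0.055 to 0.055 (Col6a1), -0.075 to 0.01 (Col6a2), -0.005 to 0.045 (Col6a3) and -0.32 to 0.01 (Col8a1). The type IV median was -0.2033 over bright sets and 0.0567 with the mean of a gene's sets, since these take different genes or sets.

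Counts between experiments moved more. With bright sets only, the intensity trend and the mean of sets, probe sets called were 374, 670 and 151 for experiments 2 and 1, 2513, 3534 and 750 for 3 and 1, and 64, 275 and 33 for 3 and 2. Without the irradiation term the last was 52. Leaving out the experiment not compared gave 0 to 0 in each, by limma with 4 arrays. Collagen genes called for 3 and 1 were 3, 5 and 1 (Col1a2, -0.60, with the mean of sets). Collagen probe sets called were 0 for 2 and 1 with bright sets, and 4 and 7 for 3 and 1 with bright sets and the trend, and 0 in each without the experiment not compared. Class medians that moved, with bright sets and the mean of sets, were -0.24 and -0.0258 (type IV, 2 and 1) and -0.07 and 0.0679 (type IV, 3 and 1). For all collagens, 3 and 2, they were 0.17 and 0.05, and 0.125 with median centring. Other chains had 0.135 with bright sets and -0.005 with median centring (3 and 1), and 0.08 with bright sets (3 and 2). Beyond these alternatives' own construction, the cause was not tested. Of the other values of single genes, 383 kept their direction and side of the threshold, 7 passed it newly between experiments (Col1a1, Col4a1, Col6a3 and Col8a2) and 2, of the dimmest Col1a2 set, no longer passed it.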

Other observations

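The genes whose level followed Col1a1 most closely over the 6 arrays were Itprid2 (Pearson r = 0.996), Npy (0.991), Gpr83 (0.991), Foxk2 (0.989) and Mfsd5 (0.989), and those that followed Col4a1 were Fam76a (0.999), Shroom4 (0.997), Sdhb (0.997), Plpp6 (0.996) and Cs (0.996). The 6 arrays are 3 pairs that share an experiment, and 285 and 344 genes reached r of 0.9 or more, so the names are only a description of these arrays.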
